A study of Mus musculus with 12 samples.

Results

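The mouse genes whose symbols start with Kcn encode the pore-forming and auxiliary subunits of potassium channels, and 89 of the 31099 genes in the count table carried such a symbol. Of these 86 were protein-coding and 3 were noncoding rows (Kcnq1ot1, Kcnd3os and Kcnmb4os2). RNA was measured in 12 libraries, 3 from each of 4 populations sorted from wild-type CD-1 pups at 3 days of age, with males and females pooled. The populations were preadipocytes and progenitors of the perivascular adipose tissue (PVAT) around the thoracic aorta, and ICAM1+ preadipocytes and DPP4+ progenitors of the inguinal white adipose tissue (IWAT). All 4 were untreated and share strain and age. Each library is a pool of mice, and the labels state that same-numbered libraries of the depots hold tissue of the same individuals. The surface markers of the PVAT sorts are not stated in the labels, so between depots a difference of tissue and a difference of sort gate cannot be told apart. Levels are given as CPM, that is counts relative to the library total after TMM scaling. A gene is called where its adjusted p in edgeR's quasi-likelihood test over all 18855 tested genes was under 0.05.

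Potassium channels let potassium leave or enter the cell and set the membrane potential. Channels of the two-pore family carry a steady leak current, inward rectifiers hold the resting potential and include channels gated by ATP, voltage-gated channels open on depolarisation, and calcium- or sodium-activated channels follow ion entry. Auxiliary subunits change how pore subunits gate or reach the membrane. In brown fat of mice the leak channel encoded by Kcnk3 is known to dampen thermogenic activation, and vascular smooth muscle and pericytes are known for the ATP-sensitive pore Kcnj8.

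By group mean, the IWAT DPP4+ progenitors held the highest levels of the inward rectifier Kcnj8, the leak channel Kcnk5 and the calcium-activated channel Kcnn3 and the lowest of the auxiliary subunit Kcne4. The promoters of these genes (250 bases before to 50 after the RefSeq start, build GRCm38.p6) are shown because the first 3 are high and the fourth low in the same libraries. They lie at chr6:142571565-142571864 (minus strand, Kcnj8), chr14:20181733-20182032 (minus strand, Kcnk5), chr3:89519914-89520213 (plus strand, Kcnn3) and chr1:78816661-78816960 (plus strand, Kcne4), written 5′ to 3′ on the gene's strand with motif matches in capitals.
Kcnj8: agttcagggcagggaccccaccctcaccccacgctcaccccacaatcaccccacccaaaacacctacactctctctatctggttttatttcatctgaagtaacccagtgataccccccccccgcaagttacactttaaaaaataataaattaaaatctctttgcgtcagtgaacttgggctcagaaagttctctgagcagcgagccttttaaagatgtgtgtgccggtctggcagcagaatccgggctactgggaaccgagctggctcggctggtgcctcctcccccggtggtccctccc
Kcnk5: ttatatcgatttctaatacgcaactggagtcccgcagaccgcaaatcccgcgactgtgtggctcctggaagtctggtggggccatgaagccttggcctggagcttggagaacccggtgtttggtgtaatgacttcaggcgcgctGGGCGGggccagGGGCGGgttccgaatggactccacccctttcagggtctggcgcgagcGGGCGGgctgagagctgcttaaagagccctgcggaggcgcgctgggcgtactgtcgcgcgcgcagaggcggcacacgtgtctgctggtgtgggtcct
Kcnn3: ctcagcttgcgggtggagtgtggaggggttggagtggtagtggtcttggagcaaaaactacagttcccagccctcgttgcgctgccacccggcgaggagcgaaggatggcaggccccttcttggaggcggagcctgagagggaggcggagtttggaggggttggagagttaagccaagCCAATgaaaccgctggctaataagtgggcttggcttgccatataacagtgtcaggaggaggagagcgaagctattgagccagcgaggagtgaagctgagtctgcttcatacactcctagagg
Kcne4: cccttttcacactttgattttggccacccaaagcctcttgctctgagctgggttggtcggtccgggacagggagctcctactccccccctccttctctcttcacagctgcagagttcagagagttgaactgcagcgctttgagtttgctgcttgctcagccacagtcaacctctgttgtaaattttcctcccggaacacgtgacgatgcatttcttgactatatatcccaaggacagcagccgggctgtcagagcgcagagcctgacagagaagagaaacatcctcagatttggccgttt
Motifs were searched on both strands. The Kcnk5 promoter held 3 GC boxes (GGGCGG), which 35.7% of the 32851 promoters of this length hold at least once, and the Kcnn3 promoter held 1 CCAAT box (CCAAT), which 37.4% hold. None of the 4 held a TATA box (TATAAA, held by 13.6%) or the nuclear receptor half-site (AGGTCA, held by 16.3%). The GC content was 53.3% for Kcnj8, 63.7% for Kcnk5, 57.7% for Kcnn3 and 52.7% for Kcne4. A promoter was matched for 72 of the member symbols.

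Of the 89 members 44 (49.4%) reached a mean of 1 CPM in at least 1 group, beside 16757 (53.9%) of all genes. By group, 33 did so in PVAT preadipocytes, 37 in PVAT progenitors, 34 in ICAM1+ preadipocytes and 26 in DPP4+ progenitors. By family, 10 of 12 auxiliary subunits, 9 of 12 calcium- or sodium-activated, 5 of 11 two-pore, 15 of 38 voltage-gated and 4 of 13 inward rectifier members reached that level, and 1 of the 3 noncoding rows. Families were set by symbol, and the Kcnmb subunits were counted with the calcium- or sodium-activated members rather than as auxiliary. Just inside the threshold stood Kcne3 at 1.04 CPM and Kcnt1 at 1.03 CPM, and just outside Kcng2 at 0.926 CPM and Kcnrg at 0.905 CPM, each in its highest group. The filter on low counts passed 57 members, 13 of them among the 45 that stayed under 1 CPM. A member that passed through 1 high group could hardly be equal in all, so counts over tested members describe them and support nothing further.

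**Figure D1:**
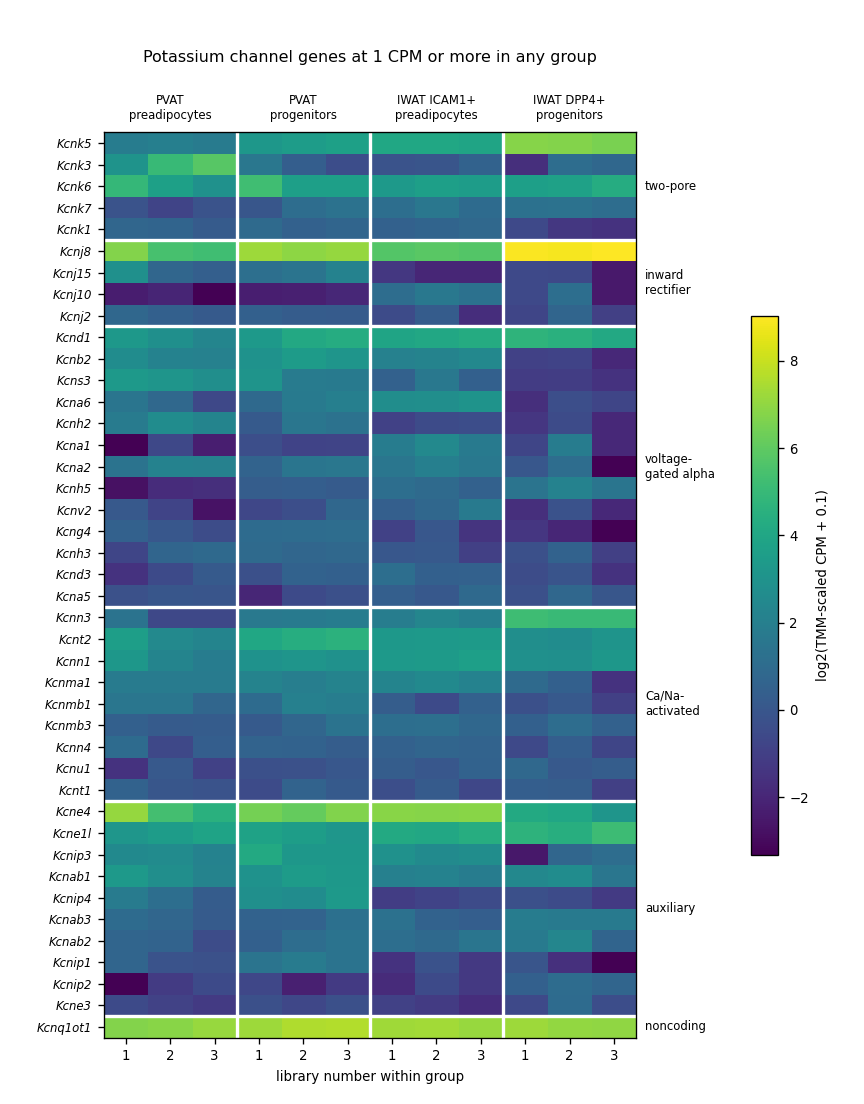
Levels of 42 of the 44 potassium channel genes at 1 CPM or more in any group, by family and in order of their highest group mean, as log2(TMM-scaled CPM + 0.1) in the 12 libraries (columns, numbered within their group). Kcnj8, Kcnk5 and Kcnn3 are brightest in the 3 DPP4+ libraries, and Kcnk3 in PVAT preadipocytes.

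The summed level of all members was 387 to 555 CPM in PVAT preadipocytes, 623 to 677 CPM in PVAT progenitors, 539 to 562 CPM in ICAM1+ preadipocytes and 912 to 961 CPM in DPP4+ progenitors. Per kilobase of exon, Kcnj8 took 25.2% of the protein-coding members' sum in PVAT preadipocytes, 37.3% in PVAT progenitors, 17.4% in ICAM1+ preadipocytes and 69.3% in DPP4+ progenitors. Kcne4 took 25.3%, 22.9%, 34.3% and 1.92% of that sum in the same order of groups. Kcnj8 and Kcne4 were the leading members per kilobase in PVAT preadipocytes (24.7 and 24.8 CPM per kb) and in PVAT progenitors (53.2 and 32.7 CPM per kb). In ICAM1+ preadipocytes Kcne4 led with 42.5 CPM per kb before Kcnj8 with 21.6, and in DPP4+ progenitors Kcnj8 led with 194 CPM per kb before Kcnk5 with 30.4.

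Total counts ran from 15614628 to 25674461. Pdgfra, a marker of stromal progenitors, was at 118 to 755 CPM in all 12 libraries. Dpp4 was at 1460 to 1593 CPM in DPP4+ progenitors and Icam1 at 485 to 507 CPM in ICAM1+ preadipocytes, each highest in its own sort. The sum of both genes was 33.1 to 58.4 CPM in PVAT preadipocytes, 178 to 200 CPM in PVAT progenitors, 520 to 534 CPM in ICAM1+ preadipocytes and 1504 to 1661 CPM in DPP4+ progenitors. Both were called lower in PVAT than in ICAM1+ preadipocytes, and 1 of them lower in PVAT than in DPP4+ progenitors. Library 1 of PVAT preadipocytes and library 1 of PVAT progenitors correlated at 0.967 with each other across genes, above their lowest correlation within their own groups (0.955 and 0.956). Library 2 of DPP4+ progenitors held more mast cell marker RNA (261 CPM over the list) than the other two of its group (49.1 and 58.4 CPM). Some results that move with these 3 libraries are given with and without them. A value given alone is not thereby shown to be free of them. In bulk libraries, fewer cells of a type and less RNA per cell cannot be told apart.

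Between the progenitors, 23 of the 57 tested members were called, 16 higher and 7 lower in PVAT than in DPP4+ progenitors, beside 24.9% of all genes (13% higher, 11.8% lower). The median log2 fold change was 0.30 over the tested members and 0.05 over all genes. With scaling by library totals these medians were 0.74 and 0.48, and 40% of all genes were called. The TMM factors were 0.744 to 0.814 in DPP4+ progenitors and 1.03 to 1.07 in PVAT progenitors, so this comparison depends on the scaling. Between the preadipocytes 22 were called, 9 higher and 13 lower in PVAT than in ICAM1+ cells, beside 44.9% of all genes (23.5% higher, 21.4% lower), with medians of -0.13 and 0.04. With scaling by library totals, which moved the median of all genes to 0.27, this split became 12 higher and 9 lower, beside 46.7% of all genes called. In PVAT preadipocytes against PVAT progenitors 14 were called, 2 higher and 12 lower, beside 32.9% of all genes (16.8% higher, 16.1% lower), with medians of -0.45 and -0.05. In ICAM1+ preadipocytes against DPP4+ progenitors 14 were called, 8 higher and 6 lower, beside 17.9% of all genes (9.34% higher, 8.61% lower), with medians of 0.04 and 0.02. With library totals this split was 15 higher and 4 lower, beside 28% of all genes called, while the median of all genes was 0.40. The preadipocyte against progenitor difference itself differed between depots (the interaction, PVAT difference minus IWAT difference) for 14 members, 3 positive and 11 negative, beside 15% of all genes (6.37% and 8.66%).

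Lists of other cell types moved with these comparisons. All 7 stromal genes were called lower in PVAT preadipocytes than in PVAT progenitors (median log2 fold change -1.76) and than in ICAM1+ preadipocytes (-1.57). Their sum was 52901, 24069 and 18282 CPM in PVAT preadipocytes, 67845 to 103258 CPM in PVAT progenitors, 76307 to 89026 CPM in ICAM1+ preadipocytes and 130440 to 155589 CPM in DPP4+ progenitors. The PVAT preadipocyte libraries stood in the same order for the stromal sum as for Kcnj8, Kcne4 and Kcnt2. The mesothelial list summed to 30.4 to 70.9 CPM in PVAT preadipocytes, 126 to 230 CPM in PVAT progenitors, 19.9 to 30.4 CPM in ICAM1+ preadipocytes and 30.8 to 35.4 CPM in DPP4+ progenitors, and 5 of its 7 genes were called higher in PVAT than in DPP4+ progenitors (median 5.64). Its marker Msln was at 39.3 to 71.5 CPM in PVAT progenitors and 0.492 to 1.37 CPM in DPP4+ progenitors. PVAT progenitors, where this list was highest, also had the highest means of 14 members at 1 CPM, 10 of them called. Among these were Kcnb2, Kcng4, Kcnip3, Kcnip4 and Kcnt2. The part of stromal or mesothelial RNA in the differences of the members was not tested.

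The counts of called members moved with single libraries, as did those over all genes. Without the 3 libraries that stand apart, an alternative chosen after seeing the data, 27 members were called between progenitors, 30 between preadipocytes, 24 between the PVAT stages, 22 between the IWAT stages and 28 for the interaction, beside 30.1%, 56.3%, 51%, 25.7% and 40.1% of all genes in that order. The count between the PVAT stages was 8 without PVAT preadipocyte library 2 (20.5% of all genes) and 9 without PVAT progenitor library 3 (19.9%). Among the calls given for single genes, scaling by library totals ended those of Kcnq1ot1 between the PVAT stages, of Kcne1l and Kcnn1 between preadipocytes, of Kcnab3 and Abcc9 between the IWAT stages and of Kcnj10 between progenitors. A fit of the PVAT groups alone ended the PVAT stage calls of Kcnq1ot1, Kcnb2, Kcnj8, Kcnd1, Kcnn3, Kcnh2 and the calcium channel subunit Cacnb3. Without the filter on low counts the calls of Kcnab3 between the IWAT stages and of Kcng4 for the interaction were lost, and with limma-voom that of Kcnj10 between progenitors. In the called pairs the libraries of the compared groups did not overlap, except for Kcnj10 between progenitors, which leaves 98.6% of the members' called pairs without overlap beside 96% over all genes. Over all comparisons 33 of the 44 members at 1 CPM were called at least once (75%, beside 66.4% of all genes at that level), and 11 were not. Kcnk5 was called in all 5, and Kcna6, Kcnb2, Kcnh5, Kcnj8 and Kcnn3 in 4.

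Among the two-pore leak channels, Kcnk5 (chromosome 14, 20140057 to 20181809), whose channel is known to open at alkaline pH, was lower in PVAT at both stages and lower in preadipocytes of both depots. It was at 3.54, 3.96 and 3.38 CPM in PVAT preadipocytes, at 9.29, 11.3 and 12.9 CPM in PVAT progenitors, at 16.5, 16.6 and 14.8 CPM in ICAM1+ preadipocytes and at 110, 106 and 94.2 CPM in DPP4+ progenitors. The groups did not overlap, and the order held in all libraries. The log2 fold change was -3.21 ± 0.16 (SE, adjusted p = 6.83e-08) for PVAT against DPP4+ progenitors and -2.14 ± 0.16 (adjusted p = 1.53e-06) for PVAT against ICAM1+ preadipocytes. Preadipocytes against progenitors differed by -1.62 in PVAT (adjusted p = 5.6e-05) and by -2.69 in IWAT (adjusted p = 2.4e-07), and these differed from each other by 1.08 (adjusted p = 0.00629).

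Kcnk3 (chromosome 5, 30588170 to 30625271), the acid-sensitive leak channel TASK-1, was at 8.06, 32.2 and 57.0 CPM in PVAT preadipocytes and at 2.89, 1.21 and 0.649 CPM in PVAT progenitors. It was at 0.797, 0.852 and 1.39 CPM in ICAM1+ preadipocytes and at 0.214, 2.05 and 1.64 CPM in DPP4+ progenitors. All PVAT preadipocyte libraries stood above the other 9 libraries, and they spread widely among themselves. It rose in PVAT preadipocytes against ICAM1+ preadipocytes (log2 fold change 4.99 ± 0.79, adjusted p = 0.000373) and against PVAT progenitors (4.34 ± 0.76, adjusted p = 0.00153). Between the progenitors (0.30, adjusted p = 0.827) and between the IWAT stages (-0.35, adjusted p = 0.838) it was not called. The interaction was 4.69 (adjusted p = 0.0153), and 4.17 (adjusted p = 0.0537) without DPP4+ library 2. Without PVAT preadipocyte library 3 the differences were 4.25 against ICAM1+ preadipocytes, 3.64 against PVAT progenitors and 3.99 for the interaction, and without PVAT progenitor library 1 the PVAT stage difference was 5.06 and the interaction 5.42. In the same PVAT preadipocyte libraries the adipocyte marker list, whose 7 members were all called higher than in PVAT progenitors, summed to 1312, 3907 and 4608 CPM, with Ucp1 at 64.8, 225 and 195 CPM. This sum stood in the same order of libraries as Kcnk3, while Ucp1 alone did not. The adipocyte sum was 383 to 425 CPM in PVAT progenitors, 641 to 731 CPM in ICAM1+ preadipocytes and 144 to 347 CPM in DPP4+ progenitors. The cardiac list (Myl7, Tnnt2, Actc1 and Myh6 in the table, all 4 called higher) summed to 11.7, 65.6 and 117 CPM in PVAT preadipocytes, in the same order of libraries as Kcnk3, to 5.12 to 9.41 CPM in PVAT progenitors, 0.858 to 1.54 CPM in ICAM1+ preadipocytes and 0.246 to 1.67 CPM in DPP4+ progenitors. The part of adipocyte or cardiac RNA in the Kcnk3 difference was not tested.

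Kcnk1, a leak channel known for its weak current, was at 1.57, 1.47 and 1.07 CPM in PVAT preadipocytes, 1.86, 1.32 and 1.51 CPM in PVAT progenitors, 1.35, 1.47 and 1.70 CPM in ICAM1+ preadipocytes and 0.571, 0.304 and 0.246 CPM in DPP4+ progenitors. The DPP4+ libraries lay below all others, with log2 fold changes of 2.03 for PVAT against DPP4+ progenitors (adjusted p = 0.00171) and 1.97 for ICAM1+ preadipocytes against DPP4+ progenitors (adjusted p = 0.00271). Kcnk6 had the highest CPM among members with no call, at 29.7, 12.7 and 7.62 CPM in PVAT preadipocytes, 37.7, 12.5 and 12.6 CPM in PVAT progenitors, 10.1, 12.6 and 11.5 CPM in ICAM1+ preadipocytes and 12.5, 13.4 and 20.01 CPM in DPP4+ progenitors. Its highest values were in library 1 of both PVAT groups, the pair that correlated with each other across genes.

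**Figure D2:**
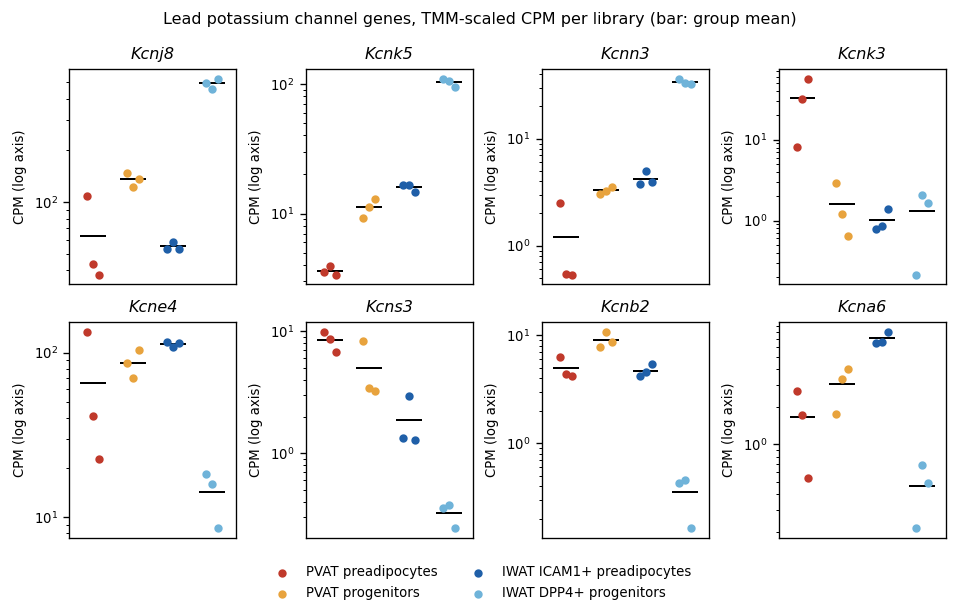
TMM-scaled CPM (log axis) of 8 potassium channel genes in each library, with a bar at the group mean of 3 libraries; groups run from PVAT preadipocytes (left) to DPP4+ progenitors (right). Kcnj8, Kcnk5 and Kcnn3 are highest and Kcne4, Kcns3, Kcnb2 and Kcna6 lowest by mean in DPP4+ progenitors, while Kcnk3 is highest in PVAT preadipocytes.

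Among the inward rectifiers, Kcnj8 (chromosome 6, 142564837 to 142571614), the Kir6.1 pore of ATP-sensitive channels, reached the highest level per kilobase of any member. It was at 108, 43.3 and 37.7 CPM in PVAT preadipocytes, 148, 123 and 136 CPM in PVAT progenitors, 53.3, 58.6 and 53.0 CPM in ICAM1+ preadipocytes and 494, 460 and 525 CPM in DPP4+ progenitors. The DPP4+ libraries stood apart from all others. It fell in ICAM1+ preadipocytes against DPP4+ progenitors (log2 fold change -3.17 ± 0.33, adjusted p = 2.86e-05), was lower in PVAT than in DPP4+ progenitors (-1.86 ± 0.31, adjusted p = 0.0008) and fell in PVAT preadipocytes against PVAT progenitors (-1.11, adjusted p = 0.0158). This last call was not made without PVAT preadipocyte library 2 (-0.91, adjusted p = 0.0715). The fall was smaller in PVAT than in IWAT (interaction 2.06, adjusted p = 0.00832). PVAT and ICAM1+ preadipocytes overlapped (0.19, adjusted p = 0.624), and without PVAT preadipocyte library 1 the PVAT level was lower (-0.50, adjusted p = 0.00403), the PVAT stage difference -1.78 and the interaction 1.39.

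Abcc9 encodes SUR2, the regulatory partner of Kir6.1, and lies 16247 bases from Kcnj8 on chromosome 6. It was at 69.5, 32.4 and 20.4 CPM in PVAT preadipocytes, 85.8, 163 and 183 CPM in PVAT progenitors, 64.9, 68.3 and 76.7 CPM in ICAM1+ preadipocytes and 178, 182 and 151 CPM in DPP4+ progenitors. It fell in preadipocytes of PVAT (log2 fold change -1.82, adjusted p = 0.00375) and of IWAT (-1.28, adjusted p = 0.03). When 1 library was left out the PVAT difference was -2.49 (without PVAT preadipocyte library 1) to -1.54. The IWAT call missed the threshold when any 1 IWAT library was left out (adjusted p up to 0.106) and with the replicate block (adjusted p = 0.0565). Between the progenitors, where Kcnj8 differed, Abcc9 was not called (-0.24, adjusted p = 0.684), nor between the preadipocytes (-0.78, adjusted p = 0.103). This last difference was called without PVAT preadipocyte library 1 (-1.46, adjusted p = 0.00198), without PVAT progenitor library 1 (adjusted p = 0.0495), with limma-voom (-1.11, adjusted p = 2.19e-05) and without the 3 libraries that stand apart (-1.45, adjusted p = 5.57e-06). Mural cell markers summed to 180 to 410 CPM in PVAT preadipocytes, 204 to 384 CPM in PVAT progenitors, 479 to 584 CPM in ICAM1+ preadipocytes and 223 to 323 CPM in DPP4+ progenitors. The endothelial list, 4 of whose 8 genes were called lower in PVAT than in DPP4+ progenitors, was highest in the same group as Kcnj8, at 57.9 to 93.4 CPM in PVAT preadipocytes, 185 to 257 CPM in PVAT progenitors, 161 to 191 CPM in ICAM1+ preadipocytes and 757 to 957 CPM in DPP4+ progenitors. Within it Tek was at 8.58 to 20.7 CPM in PVAT preadipocytes, 97.3 to 137 CPM in PVAT progenitors, 71.5 to 86.6 CPM in ICAM1+ preadipocytes and 615 to 730 CPM in DPP4+ progenitors. The defining endothelial marker Cdh5 was at 1.52 to 3.004 CPM, 2.37 to 5.79 CPM, 7.17 to 10.5 CPM and 6.86 to 16.9 CPM in the same order of groups. The part of mural or endothelial RNA in the Kcnj8 and Abcc9 values was not tested.

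The other ATP-sensitive pair was scarce. Kcnj11 (Kir6.2) had 13 counts over the 3 PVAT preadipocyte libraries, 20 over PVAT progenitors, 1 over ICAM1+ preadipocytes and 6 over DPP4+ progenitors, and did not pass the filter. Its partner Abcc8 (SUR1) was between 0.082 and 2.07 CPM in the 12 libraries and was not called in any comparison. Kcnj15 (Kir4.2) was at 7.32, 1.56 and 1.23 CPM in PVAT preadipocytes, 2.22, 2.59 and 4.44 CPM in PVAT progenitors, 0.306, 0.155 and 0.154 CPM in ICAM1+ preadipocytes and 0.571, 0.531 and 0.082 CPM in DPP4+ progenitors. It was higher in PVAT at the preadipocyte stage (4.05, adjusted p = 0.00139) and at the progenitor stage (2.92, adjusted p = 0.0131). The progenitor call missed the threshold without DPP4+ library 3 (adjusted p = 0.0538), and the preadipocyte difference was 2.73 without PVAT preadipocyte library 1.

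Kcnj10 (Kir4.1), a channel known from glia, was at 0.0983, 0.147 and 0 CPM in PVAT preadipocytes, 0.103, 0.115 and 0.162 CPM in PVAT progenitors, 2.02, 2.94 and 2.36 CPM in ICAM1+ preadipocytes and 0.571, 2.13 and 0.082 CPM in DPP4+ progenitors. It was lower in PVAT than in ICAM1+ preadipocytes (log2 fold change -4.76, adjusted p = 0.000937). When 1 library was left out this was -5.39 (without PVAT preadipocyte library 2) to -4.29. The call between progenitors (-2.81, adjusted p = 0.0358) ended with the replicate block (adjusted p = 0.0524) and in 7 of 12 fits that left out 1 library, with -1.36 (adjusted p = 0.303) without DPP4+ library 2. The Schwann and neural list was at 20.6 to 33.6 CPM in PVAT preadipocytes, 34.4 to 35.0 CPM in PVAT progenitors, 189 to 215 CPM in ICAM1+ preadipocytes and 82.4, 162 and 98.4 CPM in DPP4+ libraries 1, 2 and 3. All 8 tested members of that list were called between the preadipocytes, 6 of them lower in PVAT. Its defining marker Sox10 was at 0.0983 to 0.391 CPM in PVAT preadipocytes and 2.42 to 4.26 CPM in ICAM1+ preadipocytes. The part of Schwann cell RNA in the Kcnj10 values was not tested.

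Among the voltage-gated pores, Kcna6 (chromosome 6, 126708329 to 126740674), a Kv1 channel, had the depots in opposite order at the 2 stages. It was at 2.70, 1.71 and 0.536 CPM in PVAT preadipocytes, 1.76, 3.34 and 4.004 CPM in PVAT progenitors, 6.56, 6.70 and 8.02 CPM in ICAM1+ preadipocytes and 0.214, 0.683 and 0.492 CPM in DPP4+ progenitors. It was higher in PVAT among progenitors (2.70, adjusted p = 0.00394), lower in PVAT among preadipocytes (-2.09, adjusted p = 0.00359) and rose in ICAM1+ preadipocytes against DPP4+ progenitors (3.93, adjusted p = 0.000345), with an interaction of -4.79 (adjusted p = 0.00135). Without PVAT preadipocyte library 1 the preadipocyte difference was -2.70 and the interaction -5.38. At the other end, leaving out 1 library gave -1.73 and -4.41. Of its exon length 39.6% overlaps Gm26673 on the opposite strand, and the labels do not say whether counting used strand, so its level is uncertain. Kcna1, its neighbour and a Kv1 channel of myelinated axons, was at 0, 0.538 and 0.107 CPM in PVAT preadipocytes, 0.671, 0.461 and 0.487 CPM in PVAT progenitors, 3.49, 5.46 and 3.34 CPM in ICAM1+ preadipocytes and 0.500, 3.57 and 0.164 CPM in DPP4+ progenitors. When 1 library was left out, its difference between PVAT and ICAM1+ preadipocytes was -6.13 (without PVAT preadipocyte library 2) to -3.67. With all libraries it was lower in PVAT (-4.20, adjusted p = 0.00372), in the libraries where the Schwann and neural list also differed. The part of that list in the Kcna1 difference was not tested. Kcna2, another axonal Kv1 channel, had no call and stood at 2.56 to 4.30 CPM in PVAT preadipocytes, 1.45 to 2.92 CPM in PVAT progenitors, 2.82 to 3.91 CPM in ICAM1+ preadipocytes and 0 to 2.05 CPM in DPP4+ progenitors.

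The delayed rectifier pore Kcnb2 and the silent subunits Kcns3 and Kcng4, which modify pores of its family, were all higher in PVAT than in DPP4+ progenitors. Kcnb2 was at 6.29, 4.40 and 4.18 CPM in PVAT preadipocytes, 7.85, 10.8 and 8.71 CPM in PVAT progenitors, 4.17, 4.53 and 5.40 CPM in ICAM1+ preadipocytes and 0.429, 0.456 and 0.164 CPM in DPP4+ progenitors. The difference between progenitors was 4.66 (adjusted p = 1.18e-06) and that between the IWAT stages 3.71 (adjusted p = 1.19e-05), with an interaction of -4.58 (adjusted p = 4.36e-05). Between the preadipocytes Kcnb2 was not called (0.08, adjusted p = 0.826). The lower level in PVAT preadipocytes than in PVAT progenitors (-0.87, adjusted p = 0.0207) was not called without PVAT progenitor library 2 or PVAT preadipocyte library 2 or 3 (adjusted p up to 0.0813).

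Kcns3 was at 9.88, 8.65 and 6.81 CPM in PVAT preadipocytes, 8.36, 3.45 and 3.25 CPM in PVAT progenitors, 1.35, 2.94 and 1.29 CPM in ICAM1+ preadipocytes and 0.357, 0.380 and 0.246 CPM in DPP4+ progenitors. Both PVAT groups exceeded their IWAT counterparts, by 2.16 among preadipocytes (adjusted p = 0.00122) and by 3.90 among progenitors (adjusted p = 0.000152, and 3.31 without PVAT progenitor library 1), and Kcns3 rose between the IWAT stages (2.49, adjusted p = 0.00613). Kcng4 was at 0.644 to 1.33 CPM in PVAT preadipocytes, 1.91 to 2.06 CPM in PVAT progenitors, 0.257 to 0.929 CPM in ICAM1+ preadipocytes and 0 to 0.286 CPM in DPP4+ progenitors. Between progenitors it differed by 3.65 (adjusted p = 0.00147), and by 3.13 to 4.54 (the highest without DPP4+ library 1) when 1 library was left out. Its interaction (-2.85, adjusted p = 0.0461) ended with the replicate block (adjusted p = 0.0545) and in 8 of 12 fits that left out 1 library, which gave -3.75 to -2.16.

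Kcnd1, an A-type Kv4 pore, was at 9.49, 7.04 and 4.77 CPM in PVAT preadipocytes, 10.1, 17.3 and 19.7 CPM in PVAT progenitors, 14.8, 16.8 and 19.6 CPM in ICAM1+ preadipocytes and 25.9, 22.7 and 17.5 CPM in DPP4+ progenitors. PVAT preadipocytes lay below ICAM1+ preadipocytes (-1.26, adjusted p = 0.00382) and PVAT progenitors (-1.14, adjusted p = 0.0103). Kcnh2, the hERG channel of cardiac repolarisation, was at 3.39, 6.31 and 4.67 CPM in PVAT preadipocytes, 1.03, 2.76 and 2.43 CPM in PVAT progenitors, 0.429, 0.619 and 0.668 CPM in ICAM1+ preadipocytes and 0.286, 0.607 and 0.164 CPM in DPP4+ progenitors. It was higher in PVAT at both stages (3.04, adjusted p = 0.000227 among preadipocytes, and 2.52, adjusted p = 0.00302 among progenitors). When 1 library was left out, the progenitor difference was 2.21 to 3.15 (the highest without DPP4+ library 2). Its PVAT stage call (1.21, adjusted p = 0.0361) was lost in 6 of 12 fits that left out 1 library (adjusted p up to 0.152). The cardiac list was also higher in PVAT preadipocytes, and its part was not tested. Kcnh5, an ether-à-go-go channel, was at 0.0492 to 0.215 CPM in PVAT preadipocytes, 1.08 to 1.21 CPM in PVAT progenitors, 1.34 to 2.14 CPM in ICAM1+ preadipocytes and 2.64 to 4.33 CPM in DPP4+ progenitors. It fell in PVAT preadipocytes against PVAT progenitors (-2.85, adjusted p = 0.000989) and was lower in PVAT at both stages (-3.49, adjusted p = 8.61e-05 among preadipocytes, and -1.49, adjusted p = 0.00746 among progenitors). Its interaction (-1.997, adjusted p = 0.0355) was lost with the replicate block (adjusted p = 0.0503) and in 7 of 12 fits that left out 1 library.

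**Figure D3:**
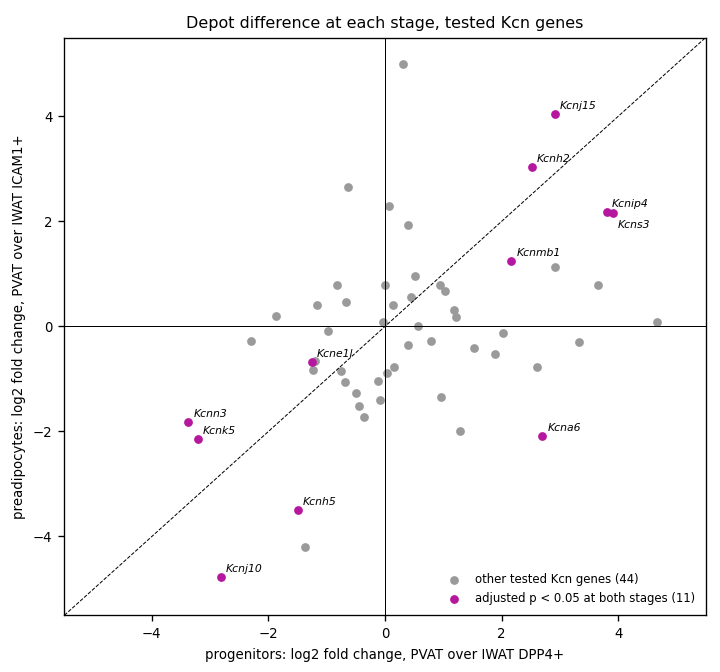
Depot difference of 55 of the 57 tested potassium channel genes as log2 fold changes, PVAT over IWAT, in preadipocytes (vertical axis) and progenitors (horizontal axis). Points in colour are 11 members called at both stages, and the dashed line marks equal differences; Kcna6 lies in the lower right.

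The plot of depot differences shows 11 members called at both stages. These comparisons share no library, but by the labels same-numbered libraries come from the same mice, and all libraries were fitted together. Of the tested members 21.1% were called at both stages, beside 15.6% of all genes. Of those shown 5 were higher in PVAT at both (Kcnh2, Kcnip4, Kcnj15, Kcnmb1 and Kcns3) and 5 lower in PVAT at both (Kcne1l, Kcnh5, Kcnj10, Kcnk5 and Kcnn3). Kcna6 was higher in PVAT among progenitors and lower among preadipocytes. Of all genes called at both stages 10.7% had opposite directions.

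Among the calcium- and sodium-activated channels, Kcnn3 (chromosome 3, 89520164 to 89675132), the small-conductance channel SK3, was at 2.51, 0.538 and 0.536 CPM in PVAT preadipocytes, 3.05, 3.22 and 3.57 CPM in PVAT progenitors, 3.74, 5.03 and 3.96 CPM in ICAM1+ preadipocytes and 36.4, 33.2 and 32.6 CPM in DPP4+ progenitors. The DPP4+ libraries lay far above the other 9. The log2 fold change was -3.37 ± 0.43 for PVAT against DPP4+ progenitors (adjusted p = 8.81e-05), -2.999 ± 0.42 for ICAM1+ preadipocytes against DPP4+ progenitors (adjusted p = 0.000256) and -1.82 for PVAT against ICAM1+ preadipocytes (adjusted p = 0.00532). The difference between PVAT stages (-1.44, adjusted p = 0.026) was lost without library 2 or 3 of either PVAT group (adjusted p up to 0.0973), and the interaction was not called (1.55, adjusted p = 0.0976), though it was with DESeq2 (1.56, adjusted p = 0.0450) and without PVAT preadipocyte library 3 (1.88, adjusted p = 0.0468). Without PVAT preadipocyte library 1 the changes were -3.03 against ICAM1+ preadipocytes, -2.63 between PVAT stages and 0.38 for the interaction.

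Kcnn1 (SK1) was at 9.19, 4.74 and 3.59 CPM in PVAT preadipocytes, 7.85, 8.75 and 7.52 CPM in PVAT progenitors, 9.74, 10.5 and 12.3 CPM in ICAM1+ preadipocytes and 7.36, 7.06 and 9.19 CPM in DPP4+ progenitors. Its single call, lower in PVAT than in ICAM1+ preadipocytes (-0.89, adjusted p = 0.0251), was lost in 4 fits without PVAT preadipocyte library 2 or 3 or ICAM1+ library 2 or 3 (adjusted p up to 0.103). Kcnt2, a sodium-activated channel, was at 12.1, 5.57 and 4.72 CPM in PVAT preadipocytes, 16.3, 20.4 and 24.5 CPM in PVAT progenitors, 9.62, 9.87 and 10.5 CPM in ICAM1+ preadipocytes and 6.86, 6.30 and 8.20 CPM in DPP4+ progenitors. PVAT progenitors were the highest group. They exceeded DPP4+ progenitors by 1.52 (adjusted p = 0.00312), and PVAT preadipocytes were lower than PVAT progenitors by a log2 fold change of -1.45 (adjusted p = 0.00422). The interaction was -1.94 (adjusted p = 0.0114). With 1 library left out, the PVAT stage difference was -2.02 to -1.23 and the interaction -2.51 to -1.72.

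Kcnma1, the large-conductance BK pore, was at 3.39, 3.47 and 3.49 CPM in PVAT preadipocytes, 4.54, 3.74 and 4.49 CPM in PVAT progenitors, 4.72, 5.81 and 4.32 CPM in ICAM1+ preadipocytes and 1.86, 1.29 and 0.246 CPM in DPP4+ progenitors. The DPP4+ libraries were the lowest, with 1.89 for PVAT against DPP4+ progenitors (adjusted p = 0.00578), 2.104 between the IWAT stages (adjusted p = 0.0037) and an interaction of -2.41 (adjusted p = 0.0149). Its smooth muscle subunit Kcnmb1 was at 2.80, 2.84 and 1.61 CPM in PVAT preadipocytes, 1.91, 4.09 and 3.62 CPM in PVAT progenitors, 1.16, 0.581 and 1.34 CPM in ICAM1+ preadipocytes and 0.714, 0.987 and 0.410 CPM in DPP4+ progenitors. Kcnmb1 was higher in PVAT among progenitors (2.17, adjusted p = 0.00362) and among preadipocytes (1.25, adjusted p = 0.0285). The second call ended with the replicate block (adjusted p = 0.0526) and in 4 of 12 fits that left out 1 library, PVAT preadipocyte 1 or 2 or ICAM1+ 1 or 2. The smooth muscle list summed to 381 to 583 CPM in PVAT preadipocytes, 283 to 408 CPM in PVAT progenitors, 439 to 559 CPM in ICAM1+ preadipocytes and 185 to 315 CPM in DPP4+ progenitors, and its part in the Kcnmb1 values was not tested.

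Among the auxiliary subunits, Kcne4 (chromosome 1, 78816758 to 78820028), known to inhibit several voltage-gated pores, was at 134, 40.9 and 22.6 CPM in PVAT preadipocytes, 86.7, 70.3 and 104 CPM in PVAT progenitors, 116, 109 and 114 CPM in ICAM1+ preadipocytes and 18.3, 15.8 and 8.61 CPM in DPP4+ progenitors. The DPP4+ libraries were the lowest, and the PVAT preadipocyte libraries spread the most. It rose in ICAM1+ preadipocytes against DPP4+ progenitors (log2 fold change 2.98 ± 0.53, adjusted p = 0.0015) and was higher in PVAT than in DPP4+ progenitors (2.61 ± 0.52, adjusted p = 0.0026). The interaction was -3.39 (adjusted p = 0.00784), and -4.47 (without PVAT preadipocyte library 1) to -2.995 when 1 library was left out. Kcne4 was not called between preadipocytes (-0.78, adjusted p = 0.207) or PVAT stages (-0.40, adjusted p = 0.554). Without PVAT preadipocyte library 1 both were called lower in PVAT preadipocytes, at -1.89 (adjusted p = 0.000461) and -1.49 (adjusted p = 0.00255). Both were also called with limma-voom on all libraries, at -1.47 (adjusted p = 1.15e-05) and -1.05 (adjusted p = 0.00111). Without the 3 libraries that stand apart they were called at -1.88 (adjusted p = 3.22e-05) and -1.52 (adjusted p = 0.000424).

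Kcnip3 and Kcnip4 encode calcium-binding partners of Kv4 channels. Kcnip3 was at 5.70, 6.21 and 4.35 CPM in PVAT preadipocytes, 18.4, 9.33 and 9.36 CPM in PVAT progenitors, 7.60, 5.92 and 6.58 CPM in ICAM1+ preadipocytes and 0.0714, 1.59 and 2.05 CPM in DPP4+ progenitors, with 3.34 between progenitors (adjusted p = 0.00106), 2.45 between the IWAT stages (adjusted p = 0.00983) and an interaction of -3.64 (adjusted p = 0.00817). With 1 library left out, these were 2.76 to 3.91, 1.88 to 3.02 and -4.21 to -3.07. Kcnip4 was at 3.44, 2.102 and 1.13 CPM in PVAT preadipocytes, 6.97, 6.45 and 10.1 CPM in PVAT progenitors, 0.368, 0.465 and 0.617 CPM in ICAM1+ preadipocytes and 0.714, 0.607 and 0.328 CPM in DPP4+ progenitors. It was higher in PVAT at both stages (2.18, adjusted p = 0.00157 among preadipocytes, and 3.80, adjusted p = 4.96e-05 among progenitors) and lower in PVAT preadipocytes than in PVAT progenitors (-1.81, adjusted p = 0.0036). The part of mesothelial RNA, also highest in PVAT progenitors, in the Kcnip4 values was not tested.

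Kcne1l, an X-linked relative of Kcne4, was at 8.996, 11.1 and 14.5 CPM in PVAT preadipocytes, 13.8, 11.5 and 8.82 CPM in PVAT progenitors, 17.95, 17.04 and 20.8 CPM in ICAM1+ preadipocytes and 25.6, 21.3 and 34.9 CPM in DPP4+ progenitors. It was lower in PVAT among progenitors (-1.26, adjusted p = 0.00197) and among preadipocytes (-0.69, adjusted p = 0.0327), the second call being lost in 5 of 12 fits that left out 1 library (adjusted p up to 0.109) and with library totals (-0.46, adjusted p = 0.131). Kcnab3, a Kv beta subunit, was at 1.07 to 1.92 CPM in PVAT preadipocytes, 1.39 to 2.27 CPM in PVAT progenitors, 1.18 to 2.33 CPM in ICAM1+ preadipocytes and 3.19 to 3.57 CPM in DPP4+ progenitors. Its only call, lower in ICAM1+ preadipocytes than in DPP4+ progenitors (-1.06, adjusted p = 0.045), ended with the replicate block (adjusted p = 0.0593) and in 7 of 12 fits that left out 1 library. Kcnab1 and Kcnab2, of the same family, had no call, at 2.79 to 10.8 CPM and 0.644 to 5.01 CPM over the 12 libraries.

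**Figure D4:**
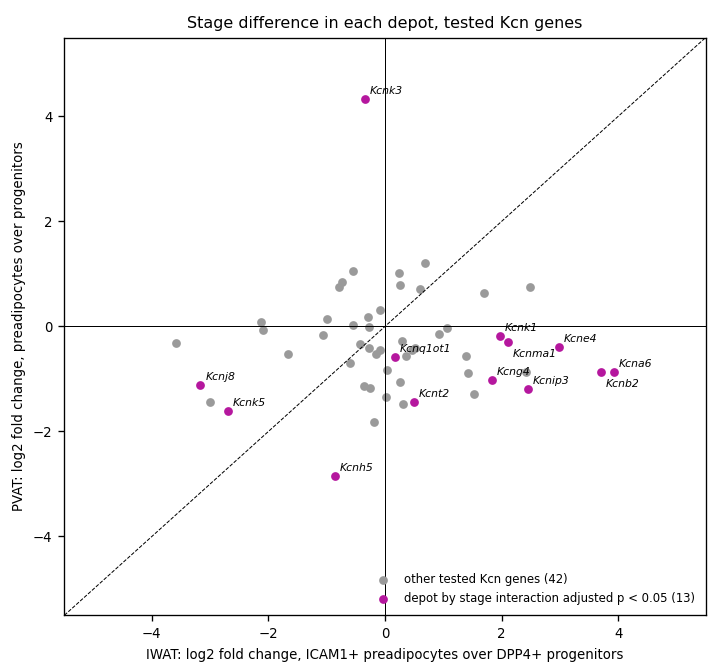
Stage difference of 55 of the 57 tested potassium channel genes as log2 fold changes, preadipocytes over progenitors, in PVAT (vertical axis) and IWAT (horizontal axis). The 13 members in colour are among those whose difference was called as unequal between depots; the dashed line marks equal differences.

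The plot of stage differences compares 2 sets of libraries that do not overlap, though by the labels same-numbered libraries come from the same mice. Kcnj8, Kcnk5 and Kcnn3 were called lower in preadipocytes of both depots, and Kcnb2 was called lower in PVAT and higher in IWAT preadipocytes. No member was called higher in both. Of the tested members 8.77% were called in both depots, beside 8.21% of all genes. The cell cycle list, all 7 of whose members were called higher in preadipocytes of both depots, summed to 786 to 1184 CPM in PVAT preadipocytes, 416 to 473 CPM in PVAT progenitors, 220 to 269 CPM in ICAM1+ preadipocytes and 56.1 to 76.3 CPM in DPP4+ progenitors, and its part in the stage differences was not tested.

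The noncoding Kcnq1ot1 (chromosome 7, 143203458 to 143296549), the imprinted antisense RNA of the Kcnq1 locus, was at 106, 113 and 140 CPM in PVAT preadipocytes, 152, 191 and 194 CPM in PVAT progenitors, 157, 160 and 142 CPM in ICAM1+ preadipocytes and 149, 131 and 128 CPM in DPP4+ progenitors. It was lower in PVAT preadipocytes than in PVAT progenitors (log2 fold change -0.58, adjusted p = 0.0118), a call lost without PVAT progenitor library 3 (adjusted p = 0.0536). Its interaction (-0.75, adjusted p = 0.0337) was lost with the replicate block (adjusted p = 0.0625) and in 8 of 12 fits that left out 1 library. Kcnq1 and other genes on the opposite strand overlap a small share of its exon length, and the labels do not say whether counting used strand, so reads of both strands may be mixed there. The remaining called members at 1 CPM were Kcnd3, Kcne3, Kcnip1, Kcnip2, Kcnk7 and Kcnv2, whose highest group means were 1.04 to 2.86 CPM. Under 1 CPM, Kcnh7, Kcnk10 and Kcnq5 were called, with highest group means of 0.501 to 0.862 CPM.

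**Figure D5:**
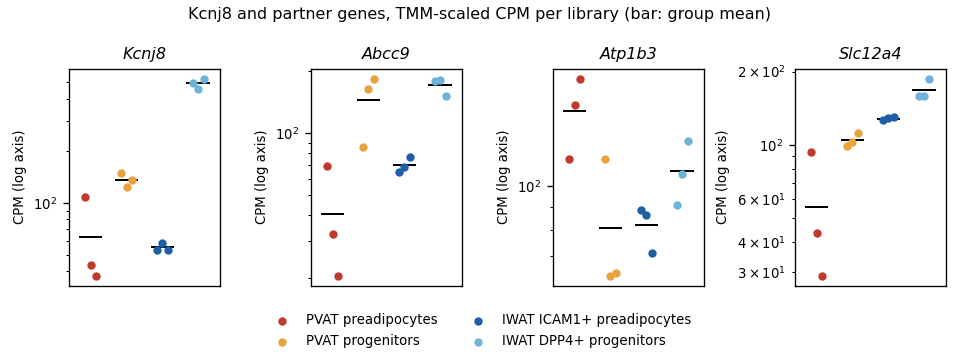
TMM-scaled CPM (log axis) of Kcnj8, its partner Abcc9, the sodium-potassium pump subunit Atp1b3 and the cotransporter Slc12a4 in each library, with a bar at the group mean of 3 libraries; groups run from PVAT preadipocytes (left) to DPP4+ progenitors (right). Kcnj8 and Slc12a4 are highest in all 3 DPP4+ libraries.

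Genes that move potassium beside the channels were followed in a list of pumps, cotransporters and channel partners with 27 tested members. Of these, 6 were higher and 2 lower in PVAT than in DPP4+ progenitors, 4 higher and 5 lower in PVAT than in ICAM1+ preadipocytes, 1 higher and 5 lower in PVAT preadipocytes than in PVAT progenitors, and 5 higher and 5 lower in ICAM1+ preadipocytes than in DPP4+ progenitors. The called shares were 29.6%, 33.3%, 22.2% and 37% of the list, beside 24.9%, 44.9%, 32.9% and 17.9% of all genes. The medians were -0.14, 0.03, -0.23 and -0.23 in that order of comparisons. Atp1b3, a pump beta subunit, was at 114, 151 and 173 CPM in PVAT preadipocytes, 114, 63.2 and 64.0 CPM in PVAT progenitors, 88.2, 86.3 and 70.8 CPM in ICAM1+ preadipocytes and 90.9, 107 and 126 CPM in DPP4+ progenitors. It was higher in PVAT than in ICAM1+ preadipocytes (0.84, adjusted p = 0.013), a call lost without PVAT preadipocyte library 3 or ICAM1+ library 3 (adjusted p up to 0.0602). Slc12a4, a potassium-chloride cotransporter, was at 94.0, 43.4 and 29.1 CPM in PVAT preadipocytes, 99.4, 103 and 112 CPM in PVAT progenitors, 126, 129 and 130 CPM in ICAM1+ preadipocytes and 159, 159 and 187 CPM in DPP4+ progenitors. It was lower in PVAT than in ICAM1+ preadipocytes (-1.21, adjusted p = 0.00747). When 1 library was left out this was -1.88 (without PVAT preadipocyte library 1) to -0.95, with adjusted p up to 0.0402.

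Of the voltage-gated calcium and sodium channel genes, whose currents potassium channels counter, 25 were tested. Of these, 4 were higher and 1 lower in PVAT than in DPP4+ progenitors, 2 higher and 6 lower in PVAT than in ICAM1+ preadipocytes, 0 higher and 6 lower in PVAT preadipocytes than in PVAT progenitors, and 5 higher and 1 lower in ICAM1+ preadipocytes than in DPP4+ progenitors. The called shares were 20%, 32%, 24% and 24% of this list, beside the same shares of all genes as for the partner list. Scn7a, an atypical sodium channel, was at 26.6, 21.9 and 19.0 CPM in PVAT preadipocytes, 31.3, 60.2 and 57.7 CPM in PVAT progenitors, 79.8, 79.6 and 91.6 CPM in ICAM1+ preadipocytes and 56.8, 64.2 and 47.2 CPM in DPP4+ progenitors. It was lower in PVAT preadipocytes than in ICAM1+ preadipocytes (-1.89, adjusted p = 7.1e-05) and than in PVAT progenitors (-1.14, adjusted p = 0.00326). Cacnb3, a calcium channel beta subunit, was at 12.7 to 37.9 CPM in PVAT preadipocytes and 48.8 to 57.6 CPM in PVAT progenitors (-1.19, adjusted p = 0.00838). With 1 library left out, this difference was -1.72 to -0.91. Cacna1g, a low-voltage-activated calcium pore, was at 21.4 to 30.7 CPM in PVAT progenitors and 11.6 to 13.5 CPM in DPP4+ progenitors (1.12, adjusted p = 0.00961).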

How the data were processed

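Cells were sorted from pooled pups, and a kit for very small RNA inputs, with poly(A) selection, gave the libraries, per the labels' protocols. The deposited table used here holds raw counts per gene and library. Per the submitters' processing notes the authors aligned reads with STAR 2.5.2a to mm10 and used DESeq2 1.26.0; the counting tool is not named there. The deposited normalised and regularised log tables were not used.

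Members are the 89 rows whose symbol starts with Kcn. The members and gene lists were chosen with earlier results of these data known. Counts of all genes were fitted with edgeR 4.0.16 (R 4.3.3): filterByExpr at a minimum count of 10 left 18855 genes, TMM factors scaled the 12 libraries, and glmQLFit and glmQLFTest used 1 mean per group. Two-sided p-values, adjusted over all of these genes by Benjamini-Hochberg, gave a call under 0.05. A ± after a log2 fold change is its standard error, the fold change divided by the square root of F. The fit was also run on simulated counts drawn from its own model. That is a check of the calculation and cannot show how the fit performs on these libraries. Coordinates (mm10) and exon lengths come from GENCODE release 21 for mouse, in which 31074 of the 31099 identifiers were found.

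The text names the 24 called members with the highest CPM, those with the 4 largest changes of each comparison, Kcnk3, Kcnj8 and Kcnj11, the 4 members of highest CPM with no call, Kcnk1 for its interaction, Abcc8 and Abcc9, and the 3 called genes of highest CPM in the partner list and the calcium and sodium channel list. Total counts of 15614628 to 25674461 leave members near 1 CPM with few reads and wide errors. Some genes that this rule covers are not reported here by name and are left out of the figures, while counts over members and lists include them. No 2 libraries of a group agreed within sampling noise.

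The numbers pair the samples, because the labels say that same-numbered libraries come from the same mice. Deviations of same-numbered libraries from their group means correlated between -0.213 and 0.153, and those of differently numbered libraries between -0.197 and 0.273. The calls reported do not use the pairing unless the block is named. A fit with the number as a block was an alternative, as were library totals, DESeq2 1.42.0, limma-voom (limma 3.58.1) with library weights, no filter, a minimum count of 30, the compared groups alone, each library left out, and, chosen after seeing the data, the omission of the 3 libraries that stand apart.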

Additional observations from a re-analysis of the deposited data

Results flagged for a closer look

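The 13 members below had a preadipocyte against progenitor difference that was unequal between PVAT and IWAT by the interaction term of edgeR's quasi-likelihood test. Each value is the PVAT difference minus the IWAT difference on the log2 scale. It was positive for Kcnk3 (4.69), whose level was higher in PVAT preadipocytes than in PVAT progenitors and not called in IWAT, and for Kcnj8 (2.06) and Kcnk5 (1.08), which were lower in preadipocytes of both depots and less so in PVAT. It was negative for the voltage-gated pores Kcna6 (-4.79), Kcnb2 (-4.58) and Kcnh5 (-1.997), for the silent subunit Kcng4 (-2.85) and for the auxiliary subunits Kcnip3 (-3.64) and Kcne4 (-3.39). Negative values were also found for the calcium- and sodium-activated Kcnma1 (-2.41) and Kcnt2 (-1.94), the leak channel Kcnk1 (-2.16) and the noncoding Kcnq1ot1 (-0.75). The calls of Kcng4, Kcnh5 and Kcnq1ot1 ended with the replicate block, and that of Kcnk3 without DPP4+ library 2 (adjusted p = 0.0537). Groups of 3 libraries were not searched for single outlying values.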

How the results depend on the processing

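With limma-voom and library weights, 28 members were called for the interaction, 35 between the preadipocytes, 27 between the PVAT stages and 25 between the IWAT stages, beside 44.5%, 66.7%, 57.9% and 32.1% of all genes. Without the 3 libraries that stand apart, 28 were called for the interaction, 24 between the PVAT stages and 22 between the IWAT stages, beside 40.1%, 51% and 25.7% of all genes. With the compared groups alone 8 were called between the PVAT stages, beside 16.2%. The other alternatives that kept all libraries stayed within 1.5 times the count reported. Leaving out each library gave 21 to 25 called between progenitors, 15 to 26 between preadipocytes, 8 to 18 between the PVAT stages, 11 to 17 between the IWAT stages and 11 to 20 for the interaction, and 43 to 45 members at 1 CPM. Over all genes the same fits called 18.1% to 29.2%, 33.6% to 48.5%, 19.9% to 40.6%, 11.5% to 21.8% and 8.45% to 26.5% in the order of these comparisons. With the replicate block, the pairing of libraries from the same mice, the counts were 22 between progenitors, 17 between preadipocytes, 13 and 12 between the PVAT and IWAT stages and 11 for the interaction. Over all genes the shares called with the block were 22.3%, 41.8%, 29.1%, 15.8% and 11.4% in that order. Besides Abcc9 and Kcnab3 between the IWAT stages and Kcng4, Kcnh5, Kcnj10, Kcnmb1 and Kcnq1ot1, the block ended no call given in the text. Differences that were not called and changed sign were Abcc9 between progenitors (0.18 with library totals, 0.071 without the 3 libraries, -0.45 to 0.023 with each library left out), Kcnk3 between the IWAT stages (0.023 with library totals, 0.40 with limma-voom, 0.16 without the 3 libraries, -0.86 to 0.17 with each library left out) and between progenitors (-0.48 to 0.82 with each library left out), Kcnb2 between preadipocytes (-0.059 with limma-voom, -0.18 without the 3 libraries, -0.19 to 0.19 with each library left out) and Kcnj8 between preadipocytes (-0.31 with limma-voom, -0.49 without the 3 libraries, -0.50 to 0.41 with each library left out). Kcnj8, not called in edgeR's fit of all libraries, was called lower in PVAT preadipocytes with limma-voom (adjusted p = 0.0437). In edgeR's fits it was also called lower without the 3 libraries (adjusted p = 0.00265) and without PVAT preadipocyte library 1 (adjusted p = 0.00403). The causes were not tested. At 3 libraries a group and few reads per member near 1 CPM, a difference that was not called is not shown to be absent.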
